A study of Mus musculus with 20 samples.

Results

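Myocardin (Myocd), its DNA-binding partner serum response factor (Srf) and the myocardin-related factors Mkl1 and Mkl2 were followed across radiation dose in mouse aorta. These 4 genes were picked out of the 21078 genes of a sense-strand count table by their symbols, and each symbol had 1 row. The group was chosen by the rise of the Myocd count with dose in these same libraries, so the Myocd slopes on dose are given as a description, with no test. All 4 genes passed the filter on low values, a mean count over the mice of 5 or more, as did 13124 genes in all.

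The libraries came from the thoracic aorta of 20 wildtype male C57BL/6 mice of 10 to 12 weeks, of which 10 were exposed to protons (Proton) and 10 to gamma rays (Gamma). Doses to the whole body were 0, 5, 10, 25, 50, 75, 100, 125, 150 and 200 cGy, with 1 mouse per dose and radiation type. The aorta was removed after 4 h. Mice at 0 cGy were restrained in the irradiators without exposure. No dose had a replicate within a radiation type, so that trends over dose and the 10 pairs of mice at a matched dose are compared.

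Srf is a transcription factor that binds the CArG box, a short sequence with an A/T-rich core, in the promoters of muscle and cytoskeletal genes. Myocd does not bind DNA by itself. It is a coactivator of cardiac and smooth muscle that joins Srf at CArG boxes and drives contractile genes such as smooth muscle actin and myosin. Mkl1 and Mkl2 (also Mrtfa and Mrtfb) are its widely expressed relatives, which are held in the cytoplasm by monomeric actin and enter the nucleus when actin polymerizes. The ternary complex factors (Elk1, Elk3, Elk4) compete with them for Srf and drive immediate early genes such as Fos and Egr1.

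Library totals lay between 6051657 and 6058006 counts, since the authors had resampled the reads to one depth, and 3 counts were 4.95e-05% of a library. The smooth muscle genes Acta2, Myh11 and Tagln ranked 1, 3 and 4 of all genes in mean count, and smooth muscle is the main cell type of the aortic wall. The Proton mouse at 75 cGy stood apart from the other 19. Its 7 cardiac muscle markers summed to 20310 counts, against at most 1242 in any other mouse, its 6 brown fat markers to 14878 (next 5824) and its 6 white fat markers to 34034 (next 12663), while its 5 smooth muscle markers summed to 156032, the lowest of 20. The 4 mice at 150 and 200 cGy also stood apart, in base composition. The correlation across 9702 genes between GC content and the deviation of a gene from its own mean was between -0.40 and -0.348 in these 4 mice and between -0.018 and 0.283 in the other 16. The GC shift and the 2 highest doses came in the same mice and cannot be told apart, and the same holds for fewer cells of a type and less RNA per cell in whole tissue.

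Myocd (ENSMUSG00000020542, mm9 chr11:64990063-65083491, minus strand) had the widest range of the 4 genes. After proton radiation its counts were 252, 175, 191, 357, 271, 110, 290, 277, 897 and 395 from 0 to 200 cGy in the order of dose. After gamma radiation they were 235, 144, 272, 175, 291, 357, 290, 361, 903 and 734. The 4 mice at 150 and 200 cGy, at 395 to 903, lay above all 16 mice at 0 to 125 cGy, at 110 to 361 with a median of 271.5, and the lowest count was that of the Proton mouse at 75 cGy. The highest count came at 150 cGy in both radiation types, not at 200 cGy, and the 2 counts at 150 cGy were 897 and 903.

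**Figure D1:**
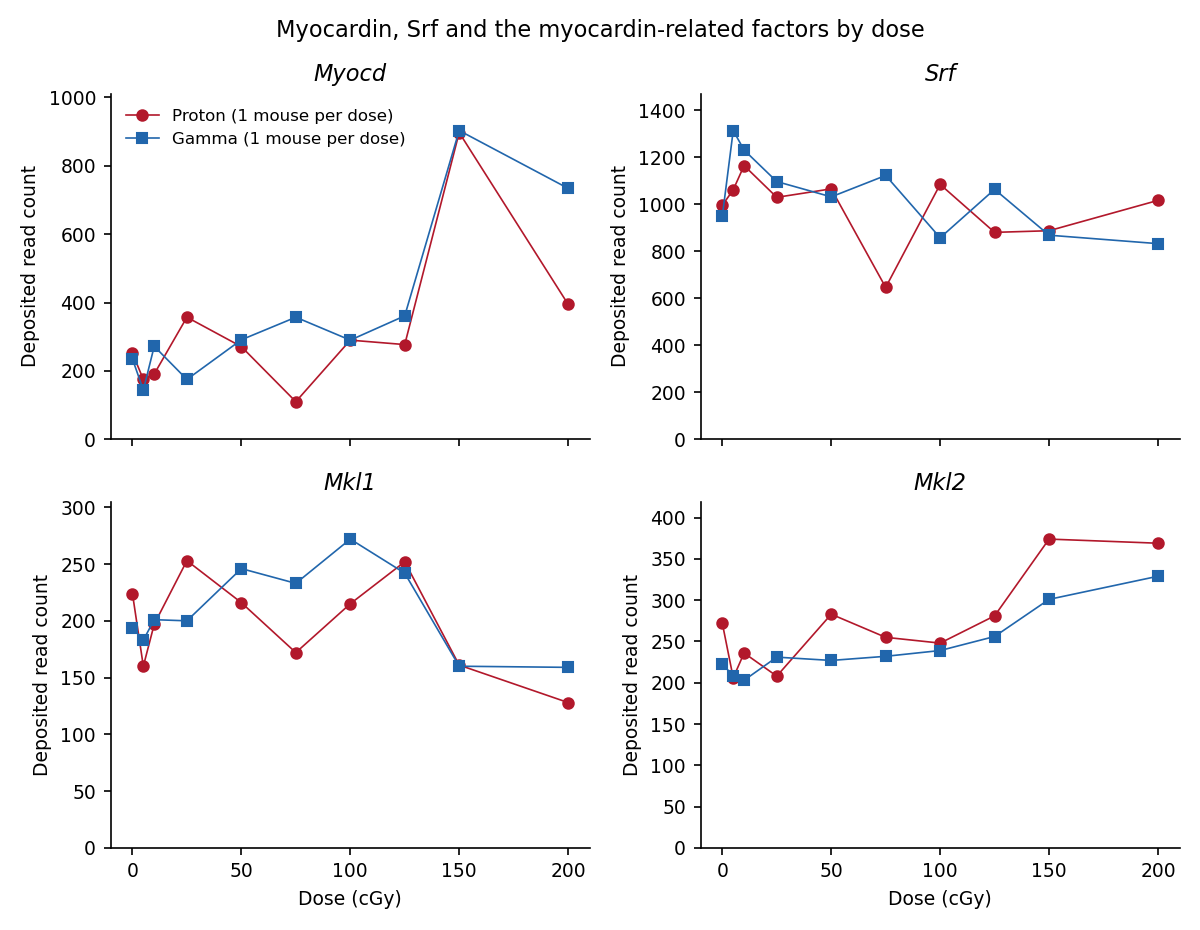
Deposited read count (vertical axes, linear, from 0) of Myocd, Srf, Mkl1 and Mkl2 against dose in cGy, with 1 point per mouse, circles for Proton and squares for Gamma, and lines joining the mice of a type. Myocd lies between 110 and 361 up to 125 cGy and between 395 and 903 at 150 and 200 cGy, Mkl2 steps from at most 283 to at least 301, and Srf and Mkl1 show no such step upwards.

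The log2 slope of Myocd, fitted with edgeR's quasi-likelihood model with a separate slope for each radiation type, was 0.74 per 100 cGy (SE 0.27, n = 10 mice) after proton and 1.05 (SE 0.26, n = 10) after gamma radiation. Relative to the mean of the 8 mice of the same type at 0 to 125 cGy, its log2 level (log2 CPM, the count scaled to library size) was 2.0 higher at 150 cGy and 0.84 higher at 200 cGy after protons, and 1.81 and 1.54 higher after gamma rays. The rise was thus carried mainly by 4 mice. With 0 to 125 cGy only, the slope was 0.12 (SE 0.34) after proton and 0.64 (SE 0.34) after gamma radiation, and without the single Proton mouse at 150 cGy the proton slope was 0.34. A correction for GC content and gene length left the slopes at 0.68 and 0.99. The GC content of the longest coding transcript of Myocd was 49.9%, near the median of 50.4% over the tested genes.

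Srf (ENSMUSG00000015605, mm9 chr17:46683788-46693111, minus strand) was the most abundant of the 4 genes. Per kilobase of exon, its median count over the 20 mice was 252 (158 to 321), against 42.7 (16.6 to 136) for Myocd, 32.7 (20.9 to 44.4) for Mkl1 and 27.1 (22.6 to 41.6) for Mkl2. On this scale the level of Srf was above those of the other 3 genes in 20 of 20 mice. The order below it was looser, since Myocd was above Mkl1 in 15 and above Mkl2 in 18 of 20 mice, and Mkl1 was above Mkl2 in 15 of 20.

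Srf is known to act on its own promoter, and an exact CArG box was found in the 250 bases before its start, but not in those of Mkl1 or Mkl2. RefSeq promoters (GRCm38.p6) were searched for the canonical box on both strands, which read alike because the box is its own reverse complement. Windows were found for 3 of the 4 genes (Srf, Mkl1 and Mkl2) and Myocd was not searched, and a box was found in 482 of all 32851 windows, or 1.47%. The Srf window held 2 boxes, with first bases 82 and 62 bases before the start. Among the target genes taken up further on, 1 of 19 contractile genes with a window (Myl9, a myosin light chain, 161 bases before the start) and 5 of 17 genes of the actin cytoskeleton list (Actg1, Fhl1, Fhl2, Filip1l and Vcl) held a box. So did 1 of 7 immediate early genes (Egr2). By window the lists had 1 of 23, 6 of 21 and 4 of 11 with a box. Bases just after the start were found in a GENCODE M1 coding transcript for Srf and Actg1 but not for Myl9, so its start was not checked by this. The windows of Srf (chr17:46556163-46556412, minus strand), Myl9 (chr2:156775214-156775463, plus strand) and Actg1, a cytoplasmic actin (chr11:120348496-120348745, minus strand, box 90 bases before the start), are shown 5′ to 3′ because they show the site at which Srf and its cofactors meet, in a member and in 1 target each of the contractile and the actin cytoskeleton list. Capitals mark the boxes.
Srf: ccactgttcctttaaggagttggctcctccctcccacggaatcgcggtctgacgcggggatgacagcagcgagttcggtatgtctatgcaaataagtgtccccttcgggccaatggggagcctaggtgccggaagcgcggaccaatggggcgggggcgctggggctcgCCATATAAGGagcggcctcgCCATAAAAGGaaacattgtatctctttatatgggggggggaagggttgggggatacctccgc
Myl9: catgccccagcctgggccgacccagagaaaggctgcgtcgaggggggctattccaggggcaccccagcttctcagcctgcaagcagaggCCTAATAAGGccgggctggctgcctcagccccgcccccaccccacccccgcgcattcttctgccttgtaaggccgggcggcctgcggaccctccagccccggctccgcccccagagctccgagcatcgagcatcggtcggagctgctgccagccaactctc
Actg1: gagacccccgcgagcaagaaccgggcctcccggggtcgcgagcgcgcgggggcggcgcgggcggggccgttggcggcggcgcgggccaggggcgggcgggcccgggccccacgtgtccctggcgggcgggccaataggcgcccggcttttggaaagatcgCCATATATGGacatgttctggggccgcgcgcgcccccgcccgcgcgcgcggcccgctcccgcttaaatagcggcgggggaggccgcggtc
A match in these letters describes the window and is no evidence of binding in these aortas.

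After proton radiation the Srf counts were 995, 1061, 1164, 1029, 1065, 646, 1084, 880, 887 and 1016 in the order of dose. After gamma radiation they were 949, 1313, 1230, 1096, 1031, 1122, 857, 1063, 868 and 832. The mice at 150 and 200 cGy, at 832 to 1016, overlapped with the mice at 0 to 125 cGy, at 646 to 1313, and the lowest value was again the Proton mouse at 75 cGy. Neither slope of Srf passed the threshold of 0.1 on the Benjamini-Hochberg adjusted p of edgeR over all tested genes, at -0.08 per 100 cGy (SE 0.10, adjusted p = 0.814) after proton and -0.25 (SE 0.10, adjusted p = 0.178) after gamma radiation. The mean of both slopes was -0.17 (SE 0.07, adjusted p = 0.141). Without the pair of mice at 75 cGy the gamma slope was -0.26 (SE 0.07) and passed (adjusted p = 0.0481), as did the mean slope of -0.18 (SE 0.05, adjusted p = 0.0306). The GC content of Srf, 60.1%, was at the 95.4 percentile of tested genes, and with GC content and length corrected its slopes were 0.03 (SE 0.10) and -0.12 (SE 0.10), with adjusted p-values of 0.993 and 0.732.

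Mkl2 (ENSMUSG00000009569, mm9 chr16:13256574-13417622, plus strand) was the other gene of the 4 that was higher at the top doses. Its counts after proton radiation were 272, 206, 236, 208, 283, 255, 248, 281, 374 and 369 in the order of dose. After gamma radiation they were 223, 208, 203, 231, 227, 232, 239, 256, 301 and 329. As for Myocd, the 4 mice at 150 and 200 cGy, at 301 to 374, lay above all 16 others, at 203 to 283. Such a gap was seen in 892 of the 13124 tested genes (6.8%), and the reverse, with the 4 mice below all others, in 324 (2.47%).

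Mkl2 rose with dose after both radiation types, by 0.36 per 100 cGy on the log2 scale (SE 0.07, edgeR adjusted p = 0.0173) after protons and by 0.30 (SE 0.07, adjusted p = 0.0253) after gamma rays. Of all tested genes, 1.6% rose and 0.16% fell with proton dose, and 5.44% rose and 2.21% fell with gamma dose at this threshold. The mean slope of Mkl2 was 0.33 (SE 0.05, adjusted p = 0.000433), where 11.7% of tested genes rose and 5.6% fell. With 0 to 125 cGy only, both slopes were 0.16 (SE 0.10), with adjusted p-values of 0.983 and 0.94. With GC content and length corrected, the slope was 0.22 (SE 0.05, adjusted p = 0.0703) after proton and 0.14 (SE 0.05, adjusted p = 0.193) after gamma radiation, so the gamma call was lost. The GC content of Mkl2, 49.7%, was near the median. Its longest coding transcript had 8295 bases, against 4093 to 5114 for Srf, Mkl1 and Myocd. Whether the GC or the length part of the correction changed the slope was not tested. Single mice decided the calls within a radiation type: the proton slope was 0.30 (adjusted p = 0.105) without the Proton mouse at 150 cGy and 0.34 (adjusted p = 0.399) without the one at 200 cGy, and the gamma slope was 0.25 (adjusted p = 0.287) without the Gamma mouse at 200 cGy. The mean slope passed whichever mouse was left out (edgeR adjusted p = 0.000144 to 0.00811). It was 0.18 (adjusted p = 0.00509) with GC content and length corrected, and 0.16 (adjusted p = 0.544) with 0 to 125 cGy only. By ranks, which take no account of the shape of the rise, Spearman's rho of count with dose was 0.685 (exact permutation p = 0.0347, adjusted p = 0.739) after proton and 0.939 (exact permutation p = 0.000206, adjusted p = 0.0419) after gamma radiation.

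Mkl1 (ENSMUSG00000042292, mm9 chr15:80842711-81021187, minus strand) did not follow its relative. Its counts after proton radiation were 224, 160, 197, 253, 216, 172, 215, 252, 161 and 128 in the order of dose. After gamma radiation they were 194, 183, 201, 200, 246, 233, 272, 242, 160 and 159. The 4 mice at 150 and 200 cGy, at 128 to 161, were at the low end of the 16 others, at 160 to 272, and overlapped with them by a single mouse, the Proton mouse at 5 cGy. The slopes of -0.20 (SE 0.13, edgeR adjusted p = 0.58) and -0.08 (SE 0.13, adjusted p = 0.849) did not pass. With 0 to 125 cGy only, they were 0.13 (SE 0.14, adjusted p = 0.983) and 0.33 (SE 0.15, adjusted p = 0.766), so that the sign turned when the 4 mice were left out. The GC content of Mkl1, 58.6%, was at the 91.2 percentile of tested genes.

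**Figure D2:**
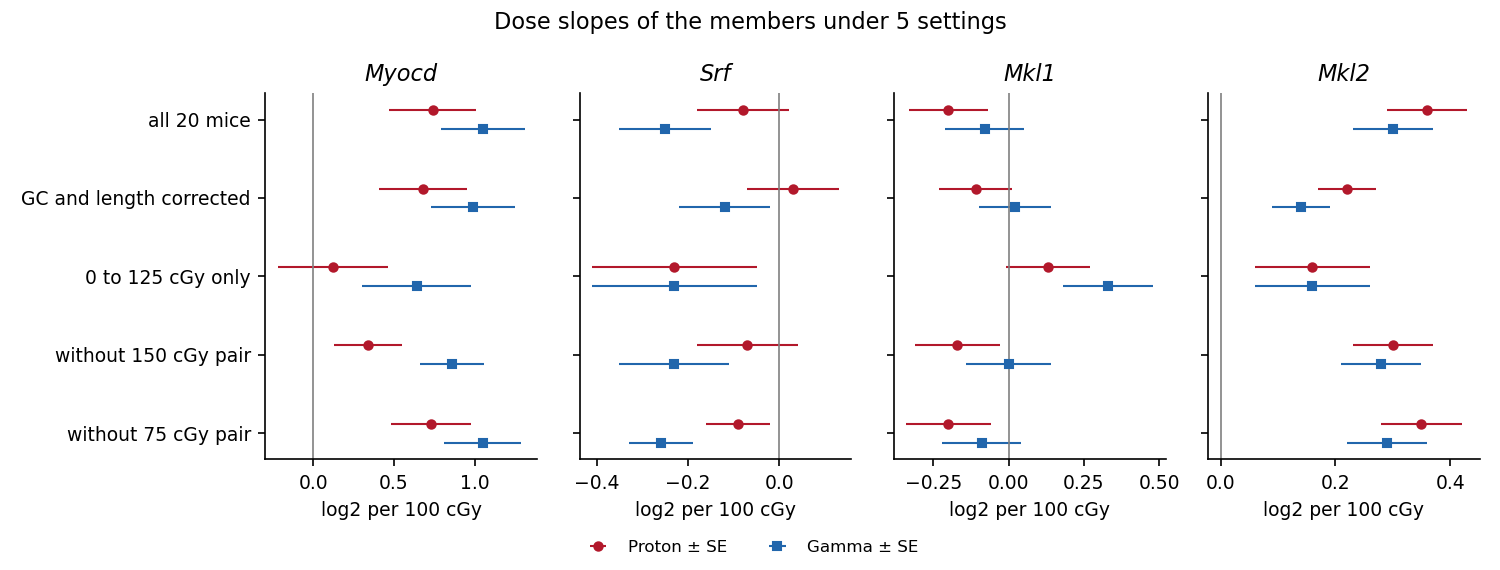
Dose slope (log2 per 100 cGy) of each member with all 20 mice, with GC content and length corrected, with 0 to 125 cGy only, and without the mice at 150 or at 75 cGy, as circles for Proton and squares for Gamma with bars of 1 standard error (SE) and a horizontal scale of its own in each panel. The proton slope of Myocd runs from 0.74 with all mice to 0.12 at 0 to 125 cGy, the slopes of Mkl2 stay between 0.14 and 0.36, and those of Mkl1 turn from below to above 0 at 0 to 125 cGy.

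Whether protons and gamma rays differed was asked in 2 ways, of which only the comparison at a matched dose does not use the dose slopes. The slope difference of Myocd is built from the slopes whose rise chose the group, and its p holds that limit. The proton slope minus the gamma slope was -0.31 (SE 0.38, edgeR unadjusted p = 0.421) for Myocd, 0.17 (SE 0.14, p = 0.25) for Srf, -0.12 (SE 0.19, p = 0.532) for Mkl1 and 0.06 (SE 0.10, p = 0.535) for Mkl2. All 4 adjusted p-values were 1.0, and 0 of all tested genes (0%) passed in edgeR, with 254 at an unadjusted p under 0.05. The difference of Myocd was smaller than its SE, and a p that misses the threshold does not show equal slopes.

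At a matched dose, 0 of all tested genes (0%) passed in edgeR's test of radiation type with dose as a block, with 1031 at an unadjusted p under 0.05. The mean difference in log2 level, proton minus gamma, was -0.23 for Myocd (SD 0.73, n = 10 pairs, exact two-sided sign-flip permutation p = 0.355). Its pairs ran from -1.72 at 75 cGy to 1.03 at 25 cGy, and the Proton mouse was higher in 5 of 10 pairs (in 3 of 10 by count, with 1 tie). Srf differed by -0.09 (SD 0.34, exact permutation p = 0.428, n = 10) and Mkl1 by -0.10 (SD 0.25, exact permutation p = 0.223, n = 10), both less than the spread between pairs. Mkl2 was higher by count in the Proton mouse of 8 of 10 pairs, with a mean difference of 0.13 (SD 0.14, n = 10, exact permutation p = 0.0234), but over all genes its edgeR adjusted p was 0.525.

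Relations between the 4 genes were taken over the proton minus gamma differences of the 10 pairs, which removes what both mice of a dose share. Over 10 relations, all pairs of the 4 genes and Myocd with 4 contractile genes, 0 had a permutation p adjusted over the 10 under 0.1. Myocd and Mkl1 had r = 0.725 (permutation p = 0.016, adjusted p = 0.144) and rho = 0.661 (permutation p = 0.0439, adjusted p = 0.359, n = 10 pairs). Leaving out the pairs at 25 and 75 cGy, the farthest from the median of the Myocd difference, brought r to 0.213. Myocd and Srf had r = 0.433 (permutation p = 0.204, adjusted p = 0.341) and rho = 0.152 (permutation p = 0.682, adjusted p = 0.853), and r = -0.197 without those pairs. These 2 pairs were picked as the extremes of the Myocd difference, so a lower r without them is partly set by that choice. Without the pair at 75 cGy alone, which holds the mouse with cardiac and fat markers, r was 0.606 for Myocd and Mkl1 and -0.217 for Myocd and Srf. Within 0 to 125 cGy, r was 0.696 and 0.638.

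The question of whether contractile targets of Myocd moved with it was addressed with 23 smooth muscle genes, all of which were tested. After proton radiation 0 of them passed in edgeR (1 at an unadjusted p under 0.05, 0 with DESeq2), with slopes from -0.26 to 0.25, a median of 0.01 and 14 above 0, against a median of 0.00 over all tested genes. Of all 13124 tested genes, 1.6% rose and 0.16% fell with proton dose, and 1745 had an edgeR unadjusted p under 0.05. After gamma radiation 0 rose and 1 fell in edgeR (3 at an unadjusted p under 0.05), with slopes from -0.34 to 0.24, a median of -0.07 and 6 above 0, against 0.01 over all tested genes. Of all tested genes, 5.44% rose and 2.21% fell with gamma dose, and 2413 had an edgeR unadjusted p under 0.05. At such shares any list of 23 genes would hold few calls, so these counts alone say little about the list. The slopes of Myocd, 0.74 and 1.05, lay above those of all 23 genes. Myocd was chosen for its rise with dose, so this order is partly set by that choice and is a description. The gene that fell was Aoc3, an amine oxidase of the smooth muscle surface, which fell by 0.30 per 100 cGy (SE 0.08, edgeR adjusted p = 0.0401). After gamma radiation 0 of the 23 passed without the Gamma mouse at 150 or at 200 cGy or with 0 to 125 cGy only, 3 passed without the Proton mouse at 75 cGy and 2 without the Gamma mouse at 0 or 125 cGy or the Proton mouse at 100 or 125 cGy.

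**Figure D3:**
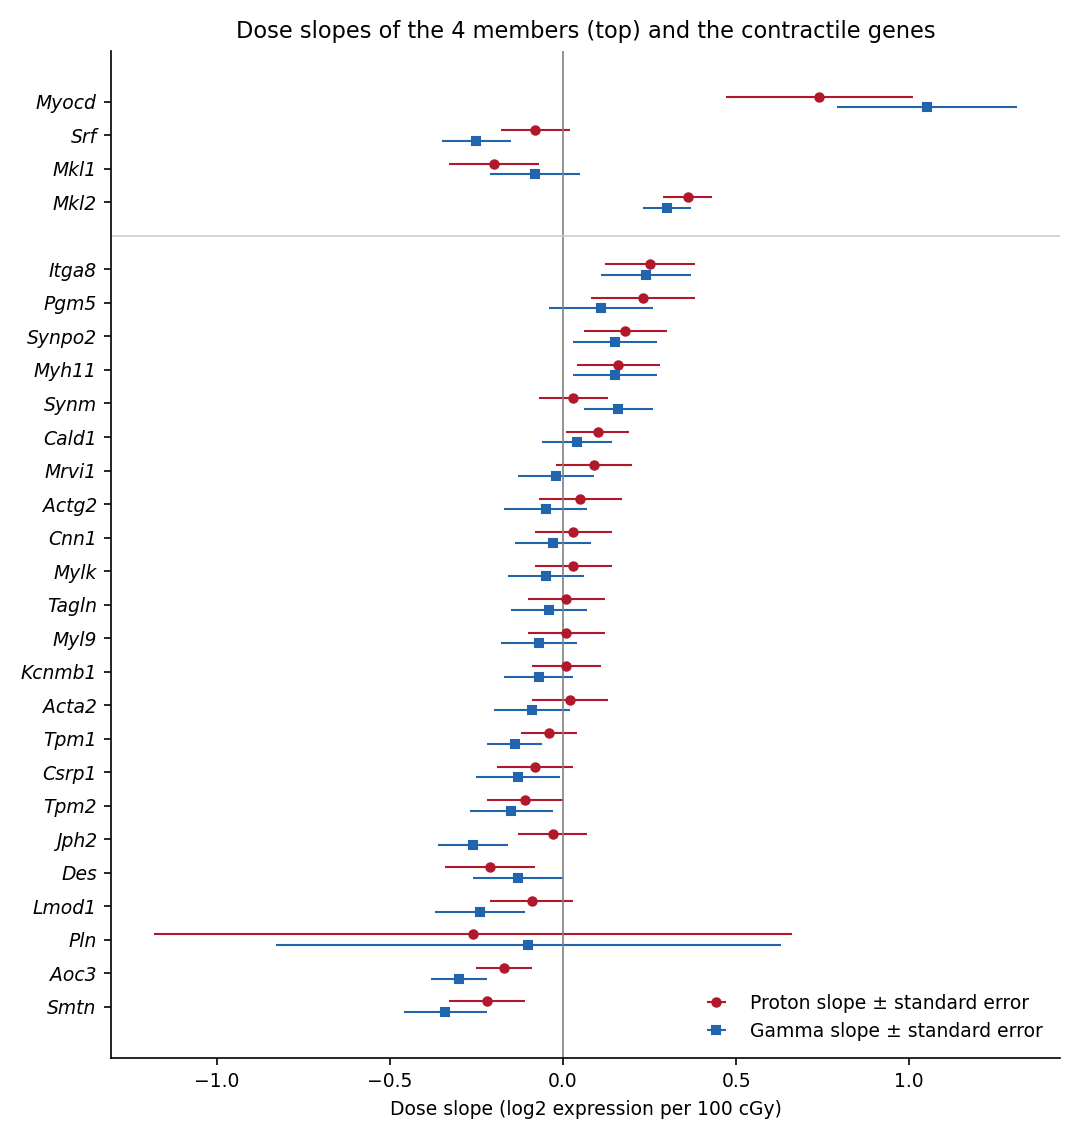
Dose slopes (horizontal axis, log2 expression per 100 cGy) with bars of 1 standard error for the 4 members above the grey line and the 23 contractile genes below it, ordered by mean slope, circles for Proton and squares for Gamma. The contractile genes lie between -0.34 and 0.25 and the slopes of Myocd, which was chosen for its rise, at 0.74 and 1.05, to the right of them all.

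The genes most used as markers of the contractile state stayed near 0 on this scale. Acta2, smooth muscle actin, had slopes of 0.02 (SE 0.11, edgeR adjusted p = 0.985) and -0.09 (SE 0.11, adjusted p = 0.77). For the actin-binding proteins Tagln and Cnn1 the adjusted p-values lay between 0.909 and 0.994, with slopes of 0.01 and -0.04 for Tagln and of 0.03 and -0.03 for Cnn1. Acta2 counts were 131032 to 146708 in the 4 mice at 150 and 200 cGy, inside the range of the 16 others, 77335 to 161018. Myh11, the smooth muscle myosin heavy chain, had slopes of 0.16 (SE 0.12, adjusted p = 0.664) and 0.15 (SE 0.12, adjusted p = 0.607). Its 4 highest-dose mice, at 69823 to 79989, overlapped with the 16 others, at 34914 to 70142, by 1 mouse of those doses.

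Some contractile genes did step up or down at the same doses as Myocd. In 4 of 23 (Cald1, Synpo2, Pgm5 and Itga8) the 4 mice at 150 and 200 cGy lay above all others, and in 1 (Aoc3) below, beside the 6.8% and 2.47% of all tested genes. Itga8, an integrin of smooth muscle, had 36266 to 38695 counts in these mice and at most 29269 in the others. Its mean slope of 0.24 passed (SE 0.09, adjusted p = 0.0904), and was 0.11 with GC content and length corrected (adjusted p = 0.551). In the mean slope 1 contractile gene rose (Itga8) and 2 fell (Aoc3, -0.24, and the actin-binding Smtn, -0.28), where 11.7% of all tested genes rose and 5.6% fell. With GC content and length corrected, Smtn was at -0.15 (adjusted p = 0.32) and Aoc3 still passed, at -0.23 (adjusted p = 0.0254). In every mouse the median of the 23 genes relative to the mean at 0 to 125 cGy was between -0.34 and 0.17, except at -0.71 in the Proton mouse at 75 cGy. At 150 and 200 cGy it was 0.05 and 0.11 after protons and -0.02 and -0.11 after gamma rays, where Myocd was 0.84 to 2.0 higher. The distance between Myocd and these genes is partly set by the choice of Myocd for its rise.

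**Figure D4:**
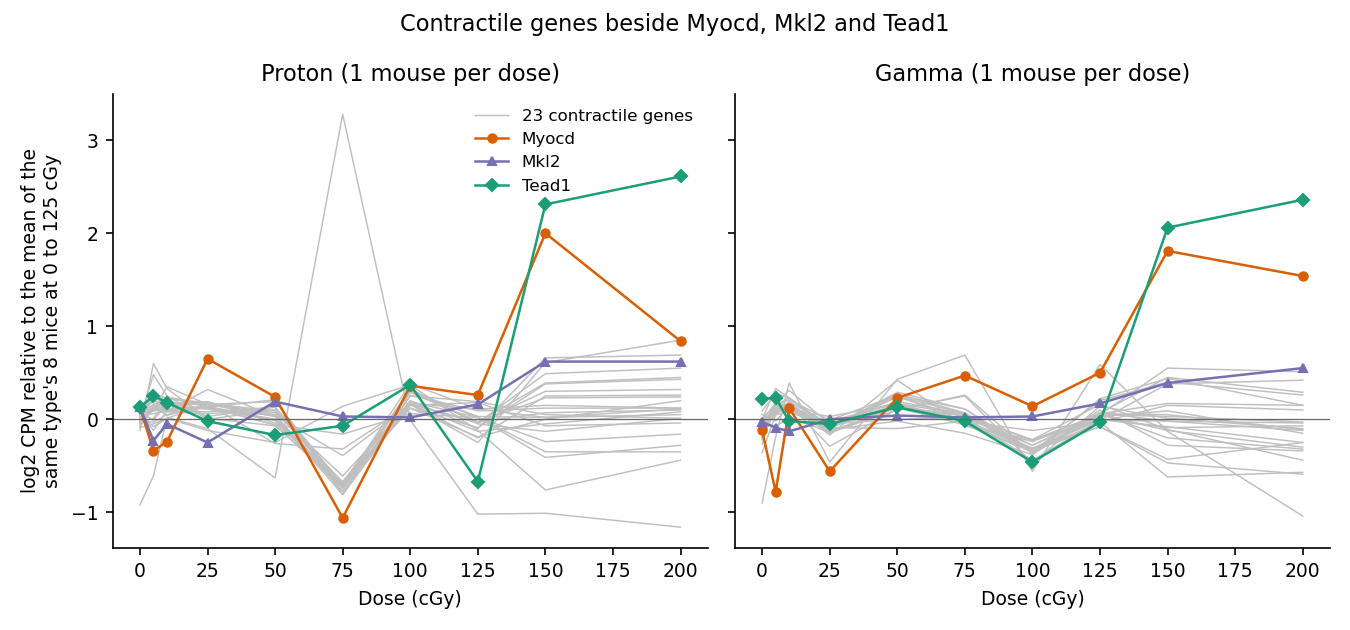
log2 CPM relative to the mean of the 8 mice of the same radiation type at 0 to 125 cGy (vertical axis) against dose in cGy, with Myocd, Mkl2 and Tead1 in colour and each of the 23 contractile genes as a grey line. At 150 and 200 cGy Tead1 is 2.06 to 2.61 and Myocd 0.84 to 2.0 higher, while the contractile genes run from -1.16 to 0.85 there, and the grey peak at 75 cGy after protons is Pln, at 3.28, in the mouse with cardiac markers.

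Over the 10 pairs, Myocd had r = 0.56 with Acta2 (permutation p = 0.0999, adjusted p = 0.2, rho = 0.236, permutation p = 0.514, adjusted p = 0.734) and r = 0.623 with Tagln (permutation p = 0.0575, adjusted p = 0.144, rho = 0.43, permutation p = 0.217, adjusted p = 0.576). It had r = 0.634 with Myh11 (permutation p = 0.0515, adjusted p = 0.144, rho = 0.6, permutation p = 0.0717, adjusted p = 0.359) and r = 0.684 with Cnn1 (permutation p = 0.0415, adjusted p = 0.144, rho = 0.418, permutation p = 0.23, adjusted p = 0.576). Without the pairs at 25 and 75 cGy these r were -0.065, 0.0417, 0.178 and 0.0714, where a lower r is partly set by leaving out the extremes of the Myocd difference. The Proton mouse at 75 cGy had the fewest smooth muscle marker counts of all 20 mice. It also had the lowest counts of Myocd, Acta2, Tagln, Myh11 and Cnn1. Without the pair at 75 cGy alone, r was -0.0577 with Acta2, 0.117 with Tagln, 0.236 with Myh11 and 0.202 with Cnn1. Within 0 to 125 cGy, where that pair is kept, r was 0.629, 0.749, 0.729 and 0.769 in the same order.

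The targets of Srf with Mkl1 and Mkl2 were taken as 20 genes of the actin cytoskeleton. After proton radiation 0 of 20 passed in edgeR, with 0 at an unadjusted p under 0.05 and a median slope of -0.04. After gamma radiation 1 fell, Actg1, the cytoplasmic actin with a CArG box, by 0.24 per 100 cGy (adjusted p = 0.0981), beside 2.21% of all tested genes, and the median was -0.13. The call of Actg1 was lost with GC content and length corrected (-0.21, adjusted p = 0.36) and without the pair at 150 cGy (adjusted p = 0.269). In the mean slope 5 fell and 0 rose, at -0.26 to -0.16 for Actb, Actg1, Tgfb1i1, Zyx and Pdlim7, beside 5.6% and 11.7% of all tested genes. With GC content and length corrected, 0 of these 5 passed in edgeR, with slopes of -0.24 (Actb) to -0.09 (Zyx and Pdlim7) and adjusted p-values of 0.136 to 0.656. Without the pair at 75 cGy, the gamma slopes of these 5 passed in edgeR, at -0.31 (Actb and Tgfb1i1) to -0.23 (Zyx). The adjusted p-values were 0.0166 (Actg1) to 0.0421 (Zyx). In that setting 573 of all 13124 tested genes fell after gamma radiation. The 5 genes were picked by a mean slope that holds the gamma slope, so their passing is partly set by that choice. They are not set against that count, and the rest of the 20 are not given in this setting. The proton slopes of the 5 did not pass there (edgeR adjusted p = 0.163 to 0.421). In 1 of the 20, the actin crosslinker Flna, the 4 mice at 150 and 200 cGy lay above all others, beside 6.8% of all tested genes. Its slopes of 0.21 in both types did not pass in edgeR (adjusted p = 0.542 and 0.434).

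Of 11 immediate early genes and the 3 ternary complex factors that share Srf, 0 passed in either radiation type or in the mean slope, and 0 had an unadjusted p under 0.05 in these 3 tests in edgeR. Of all 13124 tested genes, 1.6% rose and 0.16% fell with proton dose, 5.44% and 2.21% with gamma dose and 11.7% and 5.6% in the mean slope. An edgeR unadjusted p under 0.05 was found in 1745, 2413 and 3248 of them. At these shares lists this short would hold few calls. In 1 of the 3 factors, Elk4, the 4 mice at 150 and 200 cGy lay below all others, beside 2.47% of all tested genes. Such a gap, up or down, was seen in 0 of the 11 immediate early genes, beside 6.8% of all tested genes up and 2.47% down. The median slope of the immediate early genes was 0.25 after proton and -0.05 after gamma radiation. Egr1, a zinc finger factor, had slopes of 0.40 (SE 0.23, adjusted p = 0.493) and -0.39 (SE 0.26, adjusted p = 0.477).

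Among genes known to bind or regulate Myocd or to compete for Srf, 20 of 22 were tested, and 1 rose after proton and 2 after gamma radiation, beside 1.6% and 5.44% of all tested genes. Tead1, a DNA-binding factor of the Hippo pathway that also binds smooth muscle promoters, rose in both. Its counts were 63, 66, 64, 56, 51, 55, 73, 36, 279 and 341 after protons and 74, 72, 61, 62, 67, 63, 47, 62, 267 and 322 after gamma rays in the order of dose. The step at 150 cGy was cleaner than that of Myocd, with 267 to 341 counts in the 4 mice and 36 to 74 in the others. In 3 of the 20 partners (Ep300, Tead1 and Pias1) the 4 mice lay above all others and in 1 (Smarca4) below, beside 6.8% and 2.47% of all tested genes. The slopes of Tead1 were 1.25 (SE 0.30, adjusted p = 0.062) and 1.11 (SE 0.30, adjusted p = 0.0487), but with 0 to 125 cGy only they were -0.31 and -0.29 (SE 0.20 for both, adjusted p = 0.983 and 0.957), and with GC content and length corrected they were 1.04 and 0.89 (SE 0.26 for both, adjusted p = 0.119 and 0.113).

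The histone acetyltransferase Ep300, a partner of Myocd, had 542 to 621 counts at 150 and 200 cGy and 340 to 471 at lower doses, with a gamma slope of 0.25 (SE 0.08, edgeR adjusted p = 0.0981) that was 0.08 with GC content and length corrected. In the mean slope 3 of the 20 rose (Tead1, Ep300 and Pias1) and 3 fell (Mamstr, Smarca4 and Stub1), beside 11.7% and 5.6% of all tested genes. With GC content and length corrected, Tead1 alone of these 6 still passed, at 0.96 (adjusted p = 0.00496), and the others had adjusted p-values of 0.12 (Pias1) to 0.993 (Stub1). Of 11 genes that control the nuclear entry of Mkl1 and Mkl2 through actin, 1 rose after gamma radiation (beside 5.44% of all tested genes), Scai, known as an inhibitor of Mkl1, by 0.27 (SE 0.08, adjusted p = 0.055). Its slope was 0.01 with GC content and length corrected, and its GC content was 36.4%. Beside Scai, the kinases Rock1 and Rock2 rose in the mean slope (3 of 11, beside 11.7% of all tested genes), both by 0.29 (SE 0.08, adjusted p = 0.0252 and 0.0198). With GC content and length corrected, their slopes were 0.13 and 0.09 (adjusted p = 0.332 and 0.478) and no longer passed.

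The genes whose levels were most like those of Myocd over the 20 mice were sought among the 9817 genes that averaged 50 counts or more, by Pearson's r of log2 CPM, as a description in which the points share dose and library composition. They were Tmem87b (r = 0.934), Slc4a7 (r = 0.93), Eea1 (r = 0.924), Dopey1 (r = 0.921) and Aff4 (r = 0.915), with GC contents of 40.0% to 44.5%, below the median. None of them is in the contractile list, in which Myh11 had r = 0.703 (rank 693), Cnn1 0.392, Tagln 0.324 and Acta2 0.311. Tead1 had r = 0.731 (rank 558) over all mice and -0.123 over the 16 mice at 0 to 125 cGy. The 5 leading genes had r of 0.785 to 0.859 in those 16 mice. They were chosen for a high r over 20 mice that include these 16, unlike Tead1, so the values are not set against each other. For Srf the leading genes were Asb2 (r = 0.951), Pdlim7 (r = 0.923) and Arhgef17 (r = 0.922), with GC contents of 58.0% to 61.4%. For Mkl1 they were Magee1 (r = 0.879), Cblb (r = 0.833) and Samd4b (r = 0.819), and for Mkl2 Tulp4 (r = 0.919), Kif13b (r = 0.918) and Fem1c (r = 0.906).

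Cardiac muscle also expresses Myocd, and its markers were therefore set beside the Myocd counts. In the 4 mice at 150 and 200 cGy the 7 cardiac markers summed to 1066 to 1242 counts, against a median of 772.5 (446 to 20310) in the 16 others. Most of these counts were Ryr2, at 873 to 1079 against 360 to 774, while the atrial genes Nppa and Myl7 were at 0 to 1 and 6 to 11 counts and the heavy chain Myh6 at 23 to 43. The mouse with by far the most cardiac RNA, the Proton mouse at 75 cGy, had the lowest Myocd count of all. The smooth muscle sum was 273660 to 306035 in the 4 mice, inside the range of the others, 156032 to 315281, and the fibroblast sum 9965 to 18329 against 16092 to 31657. The part of these differences in cell makeup in the Myocd counts was not tested.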

How the data were processed

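RNA of the thoracic aorta was sequenced from 20 mice as polyA-selected, stranded libraries read in pairs. Base calls were made with CASAVA 1.8.1 and reads aligned with STAR 2.5.2a to mm9, per the submitters' processing notes. The authors resampled all libraries to one depth with PORT and deposited sense-strand read counts per gene, which are whole numbers with a median total of 6056776 per mouse. Limits set by depth cover counting error only, because amplified reads carry no molecular identifiers.

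Genes that averaged 5 counts or more were tested in edgeR 4.0.16 with TMM normalization and robust quasi-likelihood fits. The model had an intercept and a slope on dose for each radiation type, and a second model had dose as a block. P-values were adjusted by Benjamini-Hochberg over all 13124 tested genes, with a threshold of 0.1. Relations over dose pairs used 100000 permutations. Coordinates are from GENCODE M1 on mm9, in which every gene identifier was found, and the table's intervals reach 202 bases further at both ends. Promoters are from RefSeq. GC content and length were known for 95.9% of tested genes.

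The members, gene lists and tests were chosen with earlier results of these data known, and 1 gene of the contractile list and 1 of the list of partners are not reported here. The text names, from the lists, the genes past the threshold in a slope and always Acta2, Tagln, Myh11 and Cnn1. Genes past the mean slope, without overlap or with a CArG box, and Egr1, Pln and the cardiac markers, were named after their values were seen. Alternatives were DESeq2 1.42.0, no TMM, filters at other mean counts, dose as a rank or as log2(dose + 1), an exact rank test, a GC and length correction, 0 to 125 cGy only, and leaving out each mouse or pair. Leaving out the pair at 150 cGy and all alternatives for the mean slope were added after the data were seen. Scripts were tested on simulated data. R 4.3.3, Python 3.11.15, scipy 1.17.1 and pandas 2.3.3 were used.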

Additional observations from a re-analysis of the deposited data

Results flagged for a closer look

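The Myocd count of 897 in the Proton mouse at 150 cGy lay far from the other 9 Proton mice. Its distance to the next count, 395 at 200 cGy, was 0.638 of the whole range of the 10 mice, above the limit that Dixon's criterion sets for 10 samples. Since Myocd was chosen for its high counts at the top doses, this is a description and not a test. Both ends of 8 groups were examined, 4 genes in 2 radiation types, and chance flags about 1 group in 20. The mice of a group differed in dose and were not replicates of 1 dose. The Gamma mouse at 150 cGy had 903 counts, with a gap of 0.223 of its range. The lowest Srf count, 646 in the Proton mouse at 75 cGy, had a gap of 0.452, just under the limit.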

How the results depend on the processing

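Of 721 alternative values for 33 results, 652 kept their direction and their side of the threshold or moved by less than their spread. This count overstates stability, because many of the values could hardly move. Leaving out a mouse of a radiation type barely shifts the slope of the other type, which has its own intercept and slope. At a matched dose, leaving out either mouse of a pair drops the same pair. With 0 to 125 cGy only, the Myocd slopes were 0.12 after proton, 0.64 after gamma and 0.38 in the mean, the Mkl2 slopes 0.16 in all 3 and no longer past the threshold, the Mkl1 slopes 0.13, 0.33 and 0.23, with the sign turned, and the Srf slope difference -0.005. Without the pair at 150 cGy, Myocd had 0.34 after proton and 0.60 in the mean, and Mkl2 0.30 after proton, no longer past the threshold. With GC content and length corrected, Srf after proton was 0.03, Mkl1 after gamma 0.02 and Mkl2 after gamma 0.14. With log2(dose + 1), per unit, Mkl1 after gamma was 0.02 and Mkl2 0.07 after proton, 0.06 after gamma and 0.06 in the mean, and with dose as a rank Mkl2 after proton was 0.07 per rank, none past the threshold. The exact rank test lost the proton call of Mkl2 (rho 0.685). The Srf mean slope passed with DESeq2 (-0.18), with a filter at a mean of 50 counts (-0.17) and without the pair at 75 cGy (-0.18), and its gamma slope without that pair (-0.26).

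Contractile genes called after gamma radiation numbered 0 with 0 to 125 cGy only, by dose rank, by the exact rank test, with log2(dose + 1) and without the pair at 150 cGy, 2 with library sums without TMM, and 3 with DESeq2, with the filter at a mean of 50 counts and without the pair at 75 cGy (there Aoc3, Smtn and Jph2, all down), against 1 as reported.

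Leaving out each mouse in turn gave ranges of 0.34 to 0.95 for Myocd after proton, 0.70 to 1.0 for its mean, 0.30 to 0.42 for Mkl2 after proton (adjusted p = 0.00621 to 0.399, lost without the Proton mouse at 150 or at 200 cGy), 0.25 to 0.31 for Mkl2 after gamma (adjusted p = 0.0177 to 0.287, lost without the Gamma mouse at 200 cGy), -0.32 to -0.21 for Srf after gamma (adjusted p = 0.042 to 0.488) and -0.22 to -0.15 for its mean (adjusted p = 0.0268 to 0.281). Srf passed after gamma and in the mean without the Proton mouse at 75 cGy, and in the mean also without the Gamma mouse at 0 cGy. Mkl1 ran from -0.13 to 0.07 after gamma, above 0 without the Gamma mouse at 200 cGy, and its slope difference from -0.27 to 0.05, above 0 without the Proton mouse at 200 cGy. Contractile calls after gamma ran from 0, without the Gamma mouse at 150 or at 200 cGy, to 3, without the Proton mouse at 75 cGy, with 2 without the Gamma mouse at 0 or 125 cGy or the Proton mouse at 100 or 125 cGy.

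Without the 2 farthest pairs, r was -0.197 for Myocd and Srf, 0.213 for Myocd and Mkl1, -0.145 for Srf and Mkl1, 0.344 for Mkl1 and Mkl2, and -0.065, 0.0417, 0.178 and 0.0714 for Myocd with Acta2, Tagln, Myh11 and Cnn1. Without the pair at 75 cGy, r was -0.217 for Myocd and Srf, 0.606 for Myocd and Mkl1, -0.344 for Srf and Mkl1, and -0.0577, 0.117, 0.236 and 0.202 for Myocd with those 4 genes. Spearman's rho was 0.0788 for Mkl1 and Mkl2, 0.236 for Myocd and Acta2 and 0.418 for Myocd and Cnn1.

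Over all tested genes, 210 rose and 21 fell with proton dose and 714 and 290 with gamma dose, against 13 and 1, and 29 and 5, with 0 to 125 cGy only, 71 and 3, and 200 and 95, with GC content and length corrected, 39 and 1, and 202 and 47, without the pair at 150 cGy, and 312 and 64, and 871 and 573, without the pair at 75 cGy. No paired analysis by replicate number was possible because the numbers in the labels are not shared between radiation types. With the dose pair as a block, the slope difference was -0.39 for Myocd, 0.16 for Srf, -0.12 for Mkl1 and 0.06 for Mkl2, and no call changed. Beyond what other alternatives and left-out mice show, the cause of these changes was not tested. The members had mean counts of 203.4 (Mkl1) to 1009.4 (Srf) per mouse, and no dose was repeated within a radiation type.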
